A study of Mus musculus with 11 samples.

Results

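In wild-type mouse villi, the transcription factors CDX2 and HNF4A were called together at 684 sites, and at 234 of them HNF4A was called again in villi lacking Cdx2. These 234 regions are the subject here and are named retained sites. They were chosen by peak calls, as follows. Overlapping peaks (1 bp or more) of the 2 wild-type CDX2 lists were joined into 1584 sites that hold a peak of each list. Of these, 684 were overlapped by a wild-type HNF4A peak, and 234 of the 684 also by an HNF4A peak of the Cdx2 knockout list. The 450 without such a peak are named non-retained sites and serve for comparison. The retained share of 34.2% (exact 95% interval 30.7 to 37.9) is fixed by the choice of the sites, and nothing is read from it. Over all 22376 wild-type HNF4A peaks, 6740, or 30.1%, were overlapped by a Cdx2 knockout peak.

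CDX2 is a homeodomain protein that specifies and maintains the intestinal epithelium, and HNF4A is a nuclear receptor that regulates genes of absorptive enterocytes. Both bind many promoters and enhancers of villus cells, often close to each other. H3K4me2, dimethylation of histone H3 at lysine 4, marks nucleosomes at active promoters and enhancers. Where a factor occupies DNA, marked nucleosomes commonly lie on either side of it and the bound stretch between them is depleted of nucleosomes.

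Chromatin immunoprecipitation followed by sequencing (ChIP-seq) was carried out on villus epithelium of the jejunum, and 10 of the 11 samples had a list used here. HNF4A was mapped in Cdx2 knockout and in wild type. CDX2 was mapped in Hnf4a knockout and, with 2 libraries, in wild type. H3K4me2 was mapped in Cdx2 knockout, in Hnf4a knockout, in 2 double knockouts and in wild type. Every group but CDX2 in wild type had 1 library, made from pooled ChIP DNA. All these mice had a mixed 129xC57BL6 background, and the knockouts lacked Cdx2, Hnf4a or, in the double knockouts, Cdx2 with a further gene. The age and sex of the mice, and how the genes were deleted, are not given in these sources. Villi were collected on a filter that let the smaller crypts pass. The labels of both double knockouts contradict themselves on which gene besides Cdx2 is missing (Cdx1 or Hnf4a), so these libraries are called by their titles, titled Cdx2-Cdx1 and titled Cdx2-Hnf4a, and nothing is drawn from the second gene. Nothing says that the 2 CDX2 libraries came from separate animals.

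Read depth is unknown for every list. The HNF4A lists held 9676 peaks in Cdx2 knockout and 22376 in wild type, and the CDX2 lists held 5768 peaks in Hnf4a knockout and 12121 and 7441 in wild type. The H3K4me2 lists held 262148 called nucleosomes in Cdx2 knockout, 485509 in Hnf4a knockout, 292966 in the library titled Cdx2-Cdx1, 279224 in the library titled Cdx2-Hnf4a and 250986 in wild type. The lowest nucleosome score was 1.7 in the Hnf4a knockout list and between 50.1 and 51.3 in the others. With 1 library a group, no p-value between conditions was computed. Every 95% interval covers counting or the spread over sites within these libraries, treats sites as independent, and does not cover the spread between animals.

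The retained sites were spread over all 19 autosomes, with 7 to 20 on each. On chromosome X or Y lay 0 of the 234 and 4 of the 450 non-retained sites, so both sets were nearly all autosomal. The retained sites had a median width of 831 bp. Of the 234, 0 had a centre within 4 kb of another retained site (exact interval up to 1.56%). At a limit of 10 kb 4 of them had another retained site that near, and at 50 kb 12 (5.13%) did. Among the 450 non-retained sites, 12 (2.67%) had another non-retained site within 4 kb and 59 (13.1%) within 50 kb. The sets differ in size, so no spacing particular to the retained sites is read from these counts. Only 2 retained sites lay within 4 kb of a non-retained site. Nearest genes, promoters and DNA motifs of the sites were not analysed here.

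HNF4A scores at the retained sites, which helped to choose them and are given as a description, ran from 51.96 to 1269 with a median of 118 in Cdx2 knockout, and from 51.2 to 2233 with a median of 319 in wild type. The score is the authors' value for a peak, with a floor of 50 in the lists. In Cdx2 knockout 91 of the 234 scored under 100 and 7 scored 500 or more. The score in Cdx2 knockout was below that in wild type at 220 sites and above it at 14. The ratio of the scores, Cdx2 knockout over wild type, had a median of 0.449 and ran from 0.0939 to 2.47. Over the whole lists the median score was 81.2 in Cdx2 knockout and 81.1 in wild type. Peak scores move with depth, so this ratio is not a measure of occupancy. Strong sites in one list tended to be strong in the other (Spearman's rho of 0.62 across the 234 sites, which share both libraries).

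**Figure D1:**
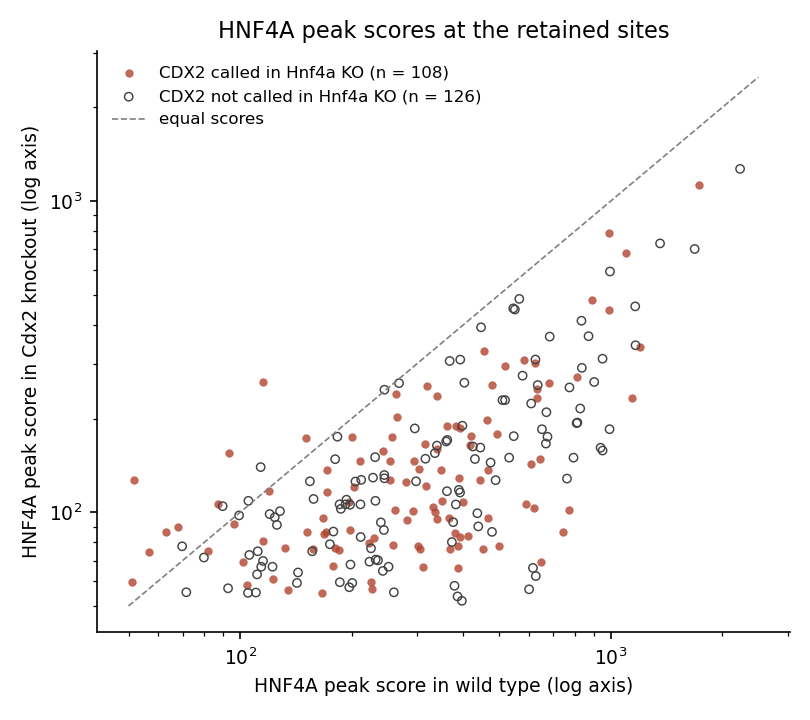
HNF4A peak score in Cdx2 knockout (vertical, log axis) against the score in wild type (horizontal, log axis) for the 234 retained sites, 1 point a site, with the line of equal scores and filled points where CDX2 was called in Hnf4a knockout. Most points lie under the line, 14 lie above it, and the scores in Cdx2 knockout span 51.96 to 1269.

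Wild-type scores were used to choose the sites, and a call in the shorter Cdx2 knockout list favours strong wild-type peaks, so the scores of retained and non-retained sites are given as a description. The wild-type HNF4A score had a median of 319 at retained sites and 102 at non-retained sites. Wild-type HNF4A peaks without a CDX2 peak in either library were divided likewise, with a median of 154 where HNF4A was called again in Cdx2 knockout and 66.5 where it was not. When the 684 shared sites were divided into tertiles by this score, 153 retained and 75 non-retained sites fell in the upper tertile, against 14 retained and 214 non-retained sites in the lower tertile. The mean of both wild-type CDX2 scores had a median of 109 at retained sites and 111 at non-retained sites. Among retained sites, CDX2 and HNF4A scores in wild type were nearly unrelated (Spearman's rho of 0.04 across the 234 sites). The first wild-type CDX2 library scored a median of 129.9 at retained sites and the second a median of 75.6.

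The strongest HNF4A calls show how far the score ranged while the site remained called. Outside chromosome 18, where sites were counted but not named, the highest HNF4A score was at a retained site on chromosome 4 (148211633 to 148213308), with 1126 in Cdx2 knockout and 1732 in wild type. Its CDX2 score was 70.2 in Hnf4a knockout, and 206 and 82.7 in the wild-type libraries. On chromosome 16 (58519596 to 58520450) HNF4A scored 701 in Cdx2 knockout and 1684 in wild type, and CDX2 was not called in Hnf4a knockout. CDX2 in wild type scored 131 and 51.9 there, near the retained-site median in the first library and near the floor of 50 in the second. The site on chromosome 3 (157656125 to 157656633) was alike, with HNF4A at 731 in Cdx2 knockout and 1358 in wild type, no CDX2 call in Hnf4a knockout, and CDX2 at 80.3 and 85.7 in wild type. The sites on chromosome 14 (73773850 to 73774980) and chromosome 9 (61215448 to 61216336) had lower HNF4A scores in Cdx2 knockout beside similar wild-type scores, namely 341 and 344 in Cdx2 knockout and 1203 and 1166 in wild type.

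The retained sites strongest for CDX2 were mostly other sites. On chromosome 7 (54088797 to 54089673) CDX2 scored 73.7 in Hnf4a knockout and 524 and 237 in wild type, with HNF4A at 272 in Cdx2 knockout and 811 in wild type. On chromosome 15 (103135291 to 103136828) CDX2 scored 229 in Hnf4a knockout and 537 and 210 in wild type. HNF4A was weak at that site, with a score of 89.5 in Cdx2 knockout and 68.0 in wild type, which makes it 1 of the 14 with the higher score in Cdx2 knockout. The site on chromosome 1 (74454882 to 74456367) was high for both factors. CDX2 scored 753 there in Hnf4a knockout and 431 and 160 in wild type, and HNF4A scored 787 in Cdx2 knockout and 990 in wild type. Its CDX2 score in Hnf4a knockout was the highest of any retained site.

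At the edge of the rule, the retained site with the lowest HNF4A score in Cdx2 knockout, on chromosome 12 (103963839 to 103964403), had 51.96 in Cdx2 knockout and 397 in wild type. The next, on chromosome 19 (4498238 to 4499116), had 53.7 in Cdx2 knockout and 386 in wild type. Outside the rule, the non-retained site with the highest wild-type HNF4A score, on chromosome 12 (70612872 to 70613618), had no peak in Cdx2 knockout and 614 in wild type. A non-retained site on chromosome 8 (118591080 to 118591952) had no HNF4A peak in Cdx2 knockout and 492 in wild type, with wild-type CDX2 scores of 522 and 431. A site without a call may still be bound. How far these non-retained sites lay from the threshold of the Cdx2 knockout list, which is shorter than that of wild type, is unknown.

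The choice of the sites places the HNF4A peaks of both genotypes on the same CDX2 site, so their closeness is given as a description. The HNF4A peaks of the 2 genotypes overlapped each other at 233 of the 234 retained sites. Their centres lay a median of 43.5 bp apart, and within 100 bp at 191 sites. The centre of the CDX2 site lay a median of 95 bp from the centre of the wild-type HNF4A peak at retained sites and 91.5 bp at non-retained sites. Retained sites commonly held a single HNF4A peak: 31 held 2 or more in wild type and 22 held 2 or more in Cdx2 knockout.

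CDX2 in villi lacking Hnf4a was not used to choose the sites. A CDX2 peak was called there at 108 of the 234 retained sites, 46.2% (exact interval 39.6 to 52.8), and at 176 of the 450 non-retained sites, 39.1% (34.6 to 43.8). Over all 1584 wild-type CDX2 sites the share was 39.2%. The difference of 7.04 percentage points had a 95% Newcombe interval of −0.727 to 14.8, which includes 0, so the retained sites were not set apart by CDX2 at this precision. The value rests on the choice of CDX2 library: it was 7.00 points (interval 0.386 to 13.8) without the first wild-type library and 0.442 points without the second. Called CDX2 scores at retained sites in Hnf4a knockout ran from 50.1 to 753 with a median of 73.3. Retained sites with that call had a higher wild-type CDX2 score (median of the mean score 139) than the 126 without (87.2), while their HNF4A score ratio was alike, with medians of 0.446 and 0.451.

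H3K4me2 at a site was counted in called nucleosomes whose centre lay 1 kb or less from that of the site. The 234 retained sites held 4.50 ± 2.15 nucleosomes a site in Cdx2 knockout and 4.76 ± 2.07 in wild type (mean ± SD over sites). The non-retained sites held 2.50 ± 2.37 in Cdx2 knockout and 3.50 ± 2.20 in wild type. Scaled by the covered length of each list, H3K4me2 in Cdx2 knockout was 0.887 of wild type at retained sites (95% interval 0.853 to 0.923) and 0.669 at non-retained sites (0.634 to 0.707). The mark thus fell at both, and less at retained sites, with a ratio of the ratios of 1.33 (1.24 to 1.42). Over all alternatives this ratio of ratios ran from 1.21 to 1.41.

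The smaller fall at retained sites came with more H3K4me2 and higher HNF4A scores in wild type. Wild-type H3K4me2 was 1.36 times as high at retained as at non-retained sites (1.25 to 1.47). With the sets weighted over broad classes of wild-type nucleosome count, the ratio of ratios was 1.27. With classes of summed wild-type nucleosome score it was 1.22. Differences within a class may remain. Both weightings were chosen after seeing the data. Within tertiles of wild-type HNF4A score, retained and non-retained sites had ratios to wild type of 0.845 and 0.687 in the lower tertile, 0.851 and 0.652 in the middle tertile, and 0.905 and 0.662 in the upper tertile. The ratio of these was 1.23 (1.05 to 1.44), 1.31 (1.15 to 1.48) and 1.37 (1.21 to 1.55), so it was above 1 in each tertile. Scores could still differ within a tertile: in the upper one they reached 2233 at retained and 614 at non-retained sites.

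Retained sites were also set against 5428 wild-type HNF4A peaks that had no CDX2 peak in either wild-type library and that were likewise called again in Cdx2 knockout. At those HNF4A-only peaks H3K4me2 in Cdx2 knockout was 0.910 of wild type (0.902 to 0.917). The retained sites' ratio was 0.975 times that value (0.937 to 1.02), an interval that includes 1. Here retained sites were centred on the CDX2 site and HNF4A-only peaks on the HNF4A peak. With both on the HNF4A peak it was 0.976 (0.936 to 1.02) within 1 kb, and other windows were not run. As first centred, the comparison turned with the window: it was 1.05 (1.01 to 1.09) within 500 bp of the centre and 0.958 (0.921 to 0.996) within 2 kb. It was also below 1 by summed nucleosome score, an alternative added after seeing the data, with 0.914 (0.863 to 0.968), and without the second wild-type CDX2 library, with 0.955 (0.937 to 0.973).

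**Figure D2:**
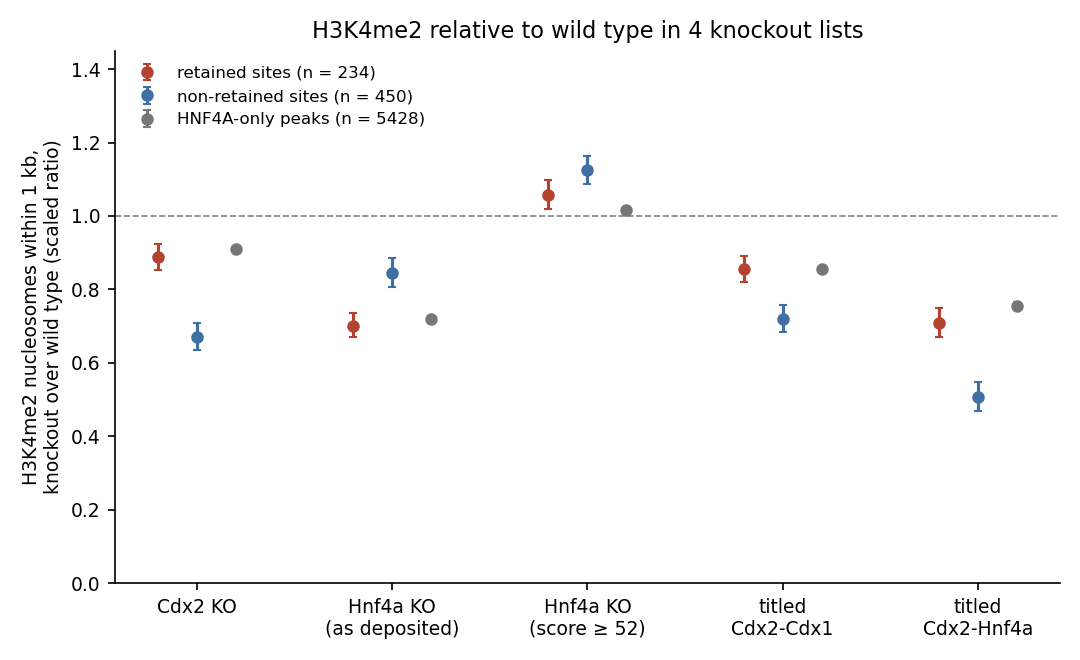
Scaled ratio of H3K4me2 nucleosomes within 1 kb, knockout over wild type (vertical), for each knockout list (horizontal) at retained sites, non-retained sites and HNF4A-only peaks, with 95% intervals over sites. In Cdx2 knockout the retained sites (0.887) lie above the non-retained sites (0.669) and near the HNF4A-only peaks (0.910).

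The change was spread over many sites. Of the 234 retained sites, 96 (41.0%) had fewer nucleosomes in Cdx2 knockout than in wild type, 80 had the same number and 58 (24.8%) had more. Of the 450 non-retained sites, 279 (62.0%) had fewer and 51 (11.3%) had more. Over all 1584 CDX2 sites, 44.5% had fewer and 12.6% had more. The difference between retained and non-retained sites was −21.0 percentage points for fewer (−28.5 to −13.1) and 13.5 points for more (7.40 to 19.9). At the 5428 HNF4A-only peaks, 34.3% had fewer and 27.5% had more, closer to the retained sites than the non-retained sites were. Of 232 retained sites marked in wild type, 4 (1.72%, exact interval 0.472 to 4.36) held no nucleosome in Cdx2 knockout, against 91 of 421 non-retained sites (21.6%) and 21.2% of all marked CDX2 sites. The difference from non-retained sites was −19.9 points (−24.2 to −15.4). The shares in this paragraph were not weighted to the same wild-type count, which was higher at retained than at non-retained sites (4.76 against 3.50 a site). At marked HNF4A-only peaks the share was 3.21% (163 of 5080), so a low share was not particular to the retained sites.

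**Figure D3:**
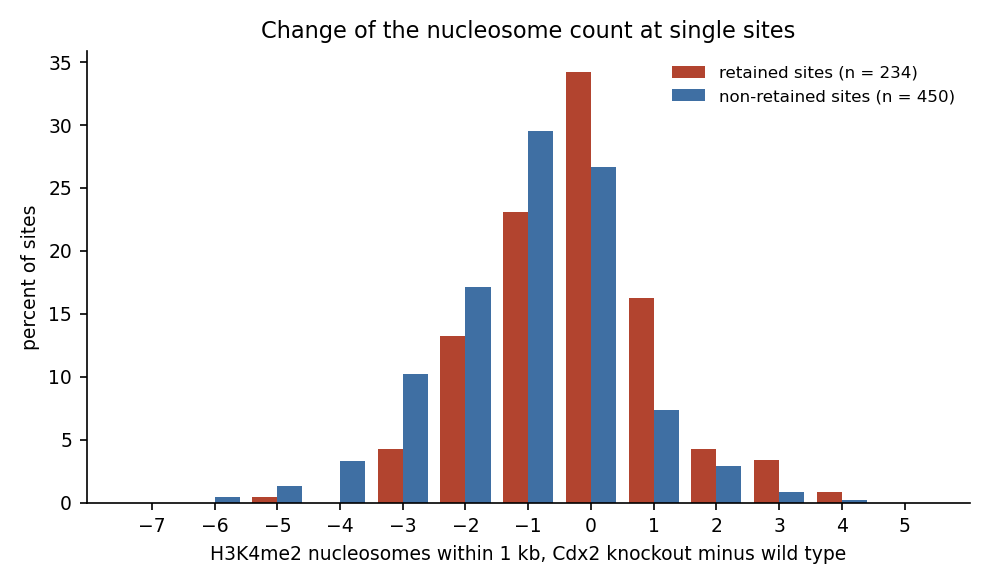
Percent of sites (vertical) by the change of the nucleosome count within 1 kb, Cdx2 knockout minus wild type (horizontal), for 234 retained and 450 non-retained sites. The retained sites peak at no change (34.2%) and reach from a loss of 5 to a gain of 4, while the non-retained sites lean to losses (62.0%).

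Single retained sites went either way, and those named had a wild-type count of at least 5, the median. The largest fall was on chromosome 19 (11144571 to 11145514), with 2 nucleosomes in Cdx2 knockout and 7 in wild type. That site held 7 nucleosomes in Hnf4a knockout, 2 in the library titled Cdx2-Cdx1 and 0 in the library titled Cdx2-Hnf4a. HNF4A there scored 59.3 in Cdx2 knockout and 142 in wild type, near the floor in Cdx2 knockout. The site on chromosome 7 (108189808 to 108190798) had 6 nucleosomes in Cdx2 knockout and 9 in wild type, and the site on chromosome 10 (80564174 to 80567343), which is the widest of all at 3170 bp, had 3 in Cdx2 knockout and 6 in wild type. The site on chromosome 17 that ends at 87690750 had 4 in Cdx2 knockout and 7 in wild type within 1 kb, but within 500 bp it had 1 more in Cdx2 knockout than in wild type. Within 500 bp the change was −1 at the sites named here on chromosome 19 and chromosome 7, and 0 at the site on chromosome 10.

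Of the rises, the retained site on chromosome 17 from 84536108 to 84537865 had 8 nucleosomes in Cdx2 knockout and 5 in wild type, with HNF4A at 683 in Cdx2 knockout and 1098 in wild type. On chromosome 6 (137513736 to 137514741) there were 10 in Cdx2 knockout and 7 in wild type. On chromosome 7 (142719673 to 142720725) there were 9 in Cdx2 knockout and 6 in wild type, with HNF4A at 261 in Cdx2 knockout and 115 in wild type. That last site gained both nucleosomes within 1 kb and HNF4A score, but within 500 bp its nucleosome count changed by 0. The rises on chromosome 17 and chromosome 6 were 2 each within 500 bp. Across retained sites the HNF4A score ratio and the change of the nucleosome count were nearly unrelated (Spearman's rho of 0.04 across 234 sites, which share all 4 libraries). The site on chromosome 19 at the edge of the rule, with an HNF4A score of 53.7 in Cdx2 knockout, had 9 nucleosomes in Cdx2 knockout and 7 in wild type. These counts at single sites are not scaled by list length. By summed nucleosome score that site fell, with 3538 in Cdx2 knockout and 4182 in wild type. The summed score also fell at the rises named on chromosome 17 (4832 and 6261) and chromosome 6 (2880 and 3235). It rose at the site on chromosome 7 (4664.5 in Cdx2 knockout and 2962.6 in wild type). In tertiles of 78 retained sites by the ratio of HNF4A scores, from low to high, H3K4me2 in Cdx2 knockout was 0.888, 0.854 and 0.921 of wild type, with overlapping intervals. The 108 retained sites with CDX2 called in Hnf4a knockout had a ratio of 0.888 and the 126 without had 0.887.

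The position of the marked nucleosomes shifted along with their number. Results by distance from the centre were added after the first results were seen. Within 100 bp of the centre the retained sites held 131 nucleosomes in Cdx2 knockout and 105 in wild type, a scaled ratio of 1.17 (1.02 to 1.34). At 100 to 400 bp the ratio was 0.905 (0.854 to 0.958) and at 400 to 1000 bp it was 0.817 (0.763 to 0.874). The mark therefore rose over the centre and fell on the flanks, and the central ratio was 1.43 times the outer one (1.23 to 1.67). Non-retained sites fell in each zone, with 0.787, 0.672 and 0.628 from the centre outwards. The central rise depended on 1 CDX2 library: with sites defined without the second wild-type library (1181 sites), it was 1.04 (0.992 to 1.09).

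**Figure D4:**
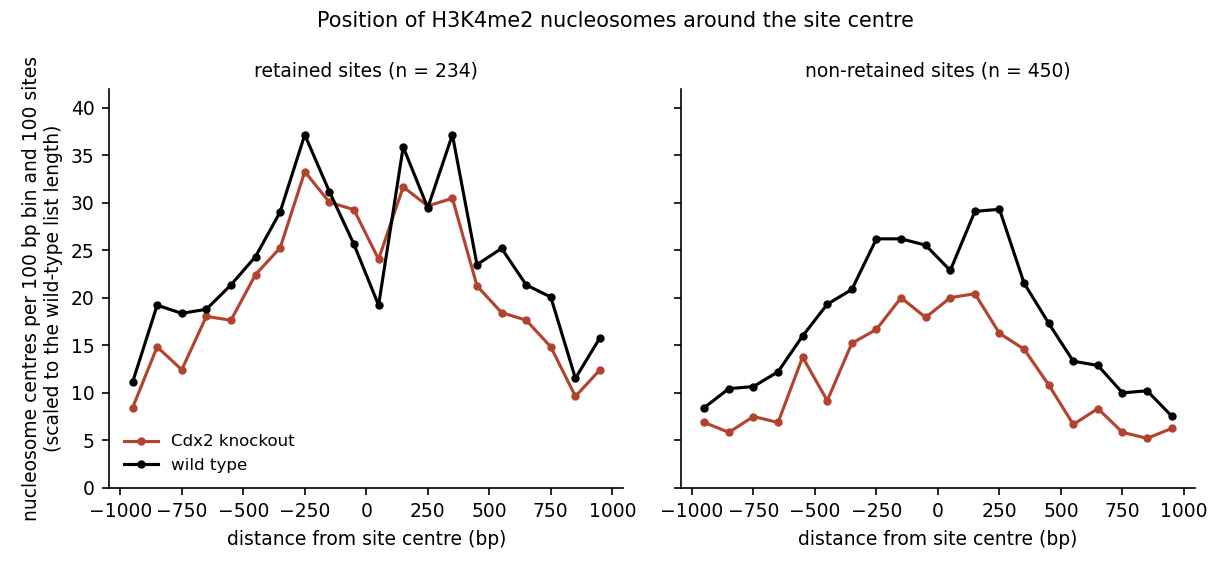
Scaled number of H3K4me2 nucleosomes per 100 sites in bins of 100 bp (vertical) by distance from the site centre in bp (horizontal), in Cdx2 knockout and in wild type, for retained and for non-retained sites. At retained sites Cdx2 knockout lies above wild type near the centre (131 nucleosomes in Cdx2 knockout and 105 in wild type within 100 bp, before scaling) and mostly below it further out.

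Centred on the wild-type HNF4A peak instead, the central rise at retained sites was 1.41 (1.20 to 1.67), from 113 nucleosomes in Cdx2 knockout and 75 in wild type. The HNF4A-only peaks also rose at the centre, by 1.11 (1.08 to 1.14), and non-retained sites had 0.928 (0.817 to 1.06). The retained sites' central ratio was 1.28 times that of the HNF4A-only peaks (1.08 to 1.51), and their ratio at 400 to 1000 bp was 0.905 times theirs (0.844 to 0.970). The central difference did not hold under each setting, with 1.05 (0.974 to 1.13) without the second CDX2 library and 1.20 (0.985 to 1.46) with peak scores of at least 60.

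The arrangement of nucleosomes at single sites was read next. A site had a flanking pair where a nucleosome centre lay 75 to 400 bp away on each side and none lay closer than 75 bp, and a central nucleosome where one lay closer than 75 bp. Flanking pairs were found at 101 retained sites (43.2%) in Cdx2 knockout and 115 (49.1%) in wild type, and at 89 non-retained sites (19.8%) in Cdx2 knockout and 165 (36.7%) in wild type. A central nucleosome was found at 96 retained sites (41.0%) in Cdx2 knockout and 80 (34.2%) in wild type, and at 136 non-retained sites (30.2%) in Cdx2 knockout and 166 (36.9%) in wild type. Pairs were more frequent at retained than at non-retained sites by 12.5 points in wild type (4.68 to 20.2) and by 23.4 points in Cdx2 knockout (16.1 to 30.6). The wild-type difference was 8.74 points with HNF4A lists of equal length and 8.63 within tertiles of HNF4A score. It was 5.62 with weighting over classes of wild-type nucleosome count, and each of these intervals includes 0. It was 20.4 points without the first wild-type CDX2 library and 8.19 without the second.

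Pairs at retained sites mostly remained pairs. Of the 115 retained sites with a pair in wild type, 86 (74.8%) also had a pair in Cdx2 knockout, against 64 of 165 non-retained sites (38.8%), a difference of 36.0 points (24.5 to 46.0). It was 22.4 points (17.0 to 27.5) with sites defined without the second wild-type CDX2 library, and between 32.7 and 35.5 under the other alternatives run. Those alternatives did not weight the sets to the same wild-type nucleosome counts or HNF4A scores. Pairs at HNF4A-only peaks were not counted. Of the other 29 retained pairs, 18 had a central nucleosome in Cdx2 knockout and 11 had neither arrangement. In the opposite direction, 7 of the 80 retained sites with a central nucleosome in wild type had a pair in Cdx2 knockout.

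**Figure D5:**
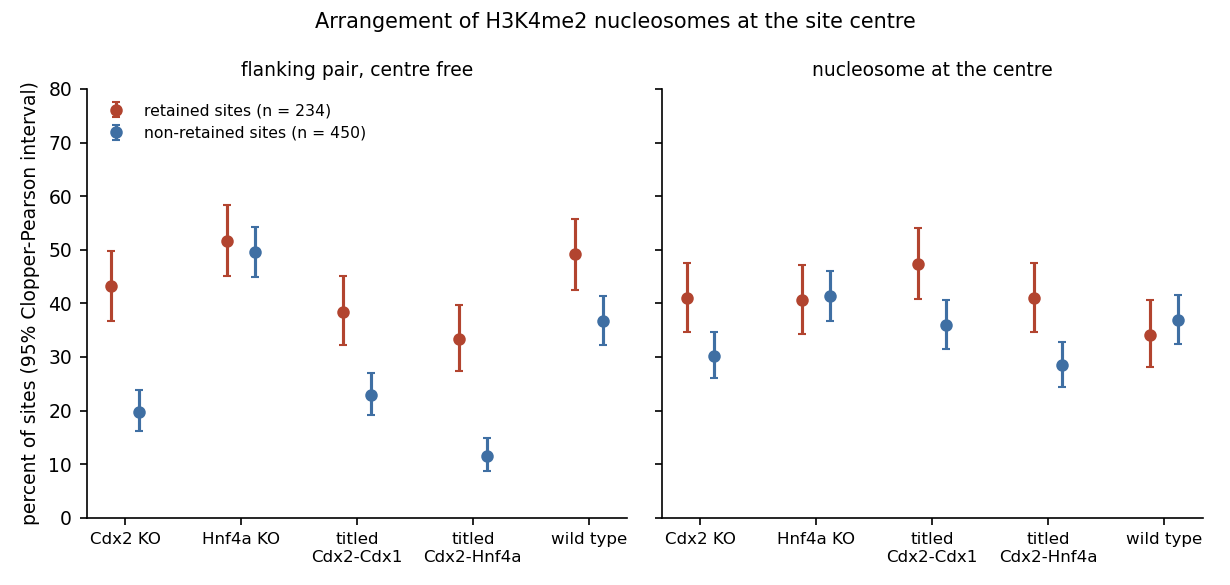
Percent of sites (vertical) with a flanking pair and with a central nucleosome in each H3K4me2 list (horizontal), for 234 retained and 450 non-retained sites, with exact 95% intervals. Pairs in Cdx2 knockout were at 43.2% of retained and 19.8% of non-retained sites. In Hnf4a knockout, with the list as deposited, they were at 51.7% and 49.6%.

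In Hnf4a knockout the direction of the H3K4me2 change at retained sites depended on the nucleosome threshold, since that list reaches far lower scores than the others. As deposited, retained sites held 6.27 nucleosomes a site in Hnf4a knockout and 4.76 in wild type, which is 0.702 of wild type after scaling (0.670 to 0.735). With scores of at least 52 in every list, they held 4.95 in Hnf4a knockout and 4.68 in wild type, a scaled ratio of 1.06 (1.02 to 1.10). No direction is therefore given. Within 1 kb, however, the retained sites were lower than non-retained sites under both thresholds. As deposited they had 0.702 against 0.846, a ratio of ratios of 0.830. At scores of at least 52 they had 1.06 against 1.12, where it was 0.941 (0.895 to 0.989). As deposited, this order did not hold within 100 bp of the centre, with 0.654 (0.567 to 0.753) at retained and 0.605 (0.546 to 0.671) at non-retained sites. It held at 100 to 400 bp (0.604 against 0.712) and at 400 to 1000 bp (0.796 against 1.06). These sets were not weighted to the same wild-type counts. Relative to HNF4A-only peaks the retained sites were not set apart as deposited, with 0.702 against 0.719, a ratio of ratios of 0.976 (0.931 to 1.02). At scores of at least 52 the HNF4A-only peaks had 1.02 (1.01 to 1.03). Of the 115 wild-type pairs, 72.2% were pairs in Hnf4a knockout, against 74.5% at non-retained sites, a difference of −2.37 points (−13.0 to 7.90). These shares are of the list as deposited, with its low-scoring nucleosomes, and may change with the threshold. Of sites with neither arrangement in wild type, 43.6% of retained and 52.1% of non-retained sites had a pair in that list. With and without CDX2 called in Hnf4a knockout, retained sites had the same ratio at scores of at least 52, 1.06 in each.

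In both double knockouts the retained sites held more of the mark than the non-retained sites, in lists that share the wild-type library with the results for Cdx2 knockout. In the library titled Cdx2-Cdx1, retained sites held 4.74 nucleosomes a site, 0.856 of wild type after scaling (0.821 to 0.892), against 0.719 at non-retained sites, and the ratio of ratios was 1.19 (1.11 to 1.27). In the library titled Cdx2-Hnf4a they held 3.83 a site, 0.709 of wild type (0.671 to 0.749), against 0.507 at non-retained sites, with a ratio of ratios of 1.40 (1.27 to 1.54). Without scaling by list length the first of these ratios to wild type was 0.997, so its fall rests on the scaling. Scaled ratios to wild type at HNF4A-only peaks were 0.855 (titled Cdx2-Cdx1) and 0.755 (titled Cdx2-Hnf4a). Retained sites over these peaks gave 1.00 (0.959 to 1.04) under the title Cdx2-Cdx1. Under the title Cdx2-Hnf4a the retained sites were lower, with 0.938 (0.887 to 0.992). A higher ratio than at non-retained sites was therefore not particular to the retained sites.

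Set against Cdx2 knockout and not wild type, the libraries differed. Retained sites in the library titled Cdx2-Hnf4a held 0.799 of the H3K4me2 of Cdx2 knockout (0.766 to 0.833), and non-retained sites held 0.758, with a ratio of ratios of 1.05 (0.983 to 1.13). The retained sites held 0.965 in the library titled Cdx2-Cdx1 (0.926 to 1.01) and the non-retained sites held 1.07, with a ratio of ratios of 0.898 (0.845 to 0.954). Of the 232 marked retained sites, 17 (7.33%) were empty in the library titled Cdx2-Hnf4a and 2 (0.862%) in the library titled Cdx2-Cdx1, against 37.3% and 14.3% of the non-retained sites. Among marked HNF4A-only peaks 10.7% and 3.46% were empty in these libraries. A nucleosome was called in all 5 lists at 213 retained sites (91.0%) and 251 non-retained sites (55.8%), a difference of 35.2 points (29.0 to 40.8), and at 82.2% of the HNF4A-only peaks. The shares of empty sites and of sites marked in all 5 lists were not weighted to the same wild-type count. Wild-type pairs at retained sites were pairs in 47.8% of cases in the library titled Cdx2-Hnf4a, against 22.4% at non-retained sites, a difference of 25.4 points (14.1 to 36.1). For the library titled Cdx2-Cdx1 the shares were 57.4% at retained and 44.2% at non-retained sites, 13.1 points apart (1.25 to 24.5).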

How the data were processed

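Per the labels' protocols, jejunal villi were fixed for factor ChIP, and unfixed villi were treated with micrococcal nuclease, without saying for which libraries. The authors deposited a list per library. Factor lists give positions and a score per peak whose scale is not stated, and peak names carry the word MACS. Nucleosome lists give, per the file headers, a score of 10 times the −log10 of a p-value. Aligner, caller version and control are not given in these sources. Coordinates are of mm9, per the submitters' processing notes, and count from 1. The input sample was not analysed here. No genome or annotation of mm9 was used, so genes and sequences of the sites are not analysed here.

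The sites, lists and comparisons were chosen with earlier results of these data known. A site took the highest score among its peaks. H3K4me2 ratios are summed nucleosome numbers within 1 kb, each divided by the covered length of its list, with delta-method 95% intervals over sites. Shares have exact Clopper-Pearson intervals and their differences Newcombe intervals. Depth is unknown, and only these intervals give precision. Named sites were, by rule, the 5 retained sites with the highest HNF4A or CDX2 scores and the 5 with the lowest HNF4A score in Cdx2 knockout. Outside the rule they were the 5 non-retained sites with the highest wild-type HNF4A score. The 5 largest falls and rises of H3K4me2 were taken among retained sites with at least the median count in wild type. Some of these are given in the text. Ratio intervals were tested on simulated data. Python 3.11.15, numpy 2.4.6, pandas 2.3.3 and scipy 1.17.1 were used, and overlaps were checked with bedtools 2.31.1. Alternatives changed the overlap, score thresholds, list lengths, window, centre, scaling and the CDX2 libraries used.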

Additional observations from a re-analysis of the deposited data

How the results depend on the processing

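No paired analysis was possible because the groups compared share fewer than 2 replicate numbers. The number of retained sites was 150 with factor scores of at least 60, and 282 to 1181 when 1 CDX2 wild-type library was left out. The smaller H3K4me2 fall at retained than at non-retained sites in Cdx2 knockout was above 1 in every alternative run (1.21 to 1.41). The CDX2 difference in Hnf4a knockout was 0.442 to 7.00 points when a library was left out. The wild-type pair difference was 8.74 points with HNF4A lists of equal length and 8.63 within tertiles of HNF4A score. By alternatives chosen after seeing the data, it was 5.62 over classes of wild-type count and 7.36 over classes of summed score. Each of these intervals includes 0. The Hnf4a knockout ratio turned to 1.06 at scores of at least 52, to 1.32 without scaling and to 1.02 by summed score. Without scaling the ratio of the library titled Cdx2-Cdx1 was 0.997. Retained sites over HNF4A-only peaks, 0.975, turned to 1.05 within 500 bp, was 0.958 within 2 kb and 0.914 by summed score, and 0.955 to 0.971 with a library left out. The central ratio was 1.04 to 1.40 with a library left out. Its excess over HNF4A-only peaks was 1.20 with factor scores of at least 60 and 1.05 to 1.30 with a library left out. The site on chromosome 17 ending at 87690750 had −3 nucleosomes, Cdx2 knockout minus wild type, and turned to 1 within 500 bp. The cause of these changes was not tested, except that the threshold removes low-scoring nucleosomes from the Hnf4a knockout list. Depth is unknown, so a missing call does not show absent binding, and each knockout's own spread cannot be had from 1 library.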
